A study of Mus musculus with 22 samples.

Results

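Differentiating mouse erythroid cells held 287 stretches of chromatin, away from the starts of protein-coding genes, where peaks of histone H3 trimethylated on lysine 4 (H3K4me3) were called before differentiation and no longer called from 12 h on. To find them, the 10 H3K4me3 peak lists of the series were merged where peaks touched, which gave 16244 regions. A region was kept when it held no GENCODE M21 transcription start site (TSS) of a protein-coding transcript, had a peak in both 0 h lists, and had none in either 12 h list or either 24 h list. Of the 7020 distal regions without such a TSS, 4294 had a peak in both 0 h lists, and the 287 that met the whole rule were 1.77% of all regions, 4.09% of the distal regions and 6.68% of those with both 0 h peaks. Since they were chosen by their H3K4me3 peaks, the gain or loss of H3K4me3 at 0, 12 and 24 h is a description here, and the measures that the rule left out are H3K27ac, CTCF, position, sequence and H3K4me3 at 2 and 6 h. For orientation, 95 distal regions that kept H3K4me3 in all lists at 0 and 12 h and lost it in both 24 h lists, and 2729 distal regions with H3K4me3 in all 10 lists, are given beside them.

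The cells were G1ER (labelled G1E-ER4), a Gata1-null mouse erythroid line made from embryonic stem cells that carries GATA1 fused to the ligand-binding domain of the estrogen receptor, so that β-estradiol switches GATA1 on. They are 1 line, and all samples share the Gata1-null background and the transgene. Cells were grown with stem cell factor and erythropoietin and received 10-7 M β-estradiol for 0 h (undifferentiated) or for 2, 6, 12 or 24 h (differentiated). Chromatin was immunoprecipitated for H3K4me3 and for H3K27ac (acetylation of lysine 27) at all 5 times with 2 replicates each, and for CTCF at 0 and 24 h with 1 sample each.

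H3K4me3 is best known from active promoters, where it sits on the nucleosomes beside the TSS, and lower levels occur at some enhancers. H3K27ac marks active promoters and active enhancers alike, and is placed by the acetyltransferases p300 and CBP. GATA1 is the factor that drives terminal erythroid differentiation, in part by displacing GATA2 from sites that both can bind, and CTCF is the zinc finger protein that anchors chromatin loops and domain borders.

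The deposited lists give positions and a peak score but no read counts, so sequencing depth is unknown and a peak that is not listed can only be called not detected. The H3K4me3 lists held 12925 to 14452 peaks, the H3K27ac lists 17247 to 18333, and the CTCF lists 33193 at 0 h and 41473 at 24 h. Both 0 h H3K4me3 lists (14014 and 14452 peaks) were longer than those of 12 h (13239 and 13067) and 24 h (12925 and 13071). With equal numbers of top-scoring peaks per list, 80 regions met the rule. The part of list length in the loss of H3K4me3 was not tested. Scores began at 50 in every list and were used mainly as a percentile within a list. Raw scores were used across lists for the cutoff at the pooled median score and for medians over several lists. All intervals are 95% Wilson intervals over regions and cover counting error only, and any p-value measures the spread between these samples, which the study describes as independent experiments and the labels do not tie to separate cultures.

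Windows of 300 bases from 7 of the regions show what this chromatin looks like at the sequence level. They were taken around the middle of the stretch covered in both 0 h lists, from the mouse genome GRCm38 (mm10), plus strand, at chr7:127649050-127649349 (Zfp629), chr19:46863831-46864130 (Nt5c2), chr15:89512789-89513088 (Shank3), chr2:70889203-70889502 (Tlk1), chr8:57520495-57520794 (Hmgb2), chr13:23459298-23459597 (Btn1a1) and chr5:75535907-75536206 (Kit). That near *Zfp629* had the highest H3K4me3 score percentile at 0 h. Those near *Nt5c2* and *Shank3* were long and had H3K27ac in every list, although it was shortened at 24 h near *Shank3*. Those near *Tlk1* and *Hmgb2* had no H3K27ac peak listed at 24 h, and those near *Btn1a1* and *Kit* lie by genes whose promoters the study had captured. Capitals mark matches, on either strand, to the GATA motif searched, spelled AGATAA in one form, as AGATAG in another, as TGATAA in the next and also with TGATAG in the last.
Zfp629 region: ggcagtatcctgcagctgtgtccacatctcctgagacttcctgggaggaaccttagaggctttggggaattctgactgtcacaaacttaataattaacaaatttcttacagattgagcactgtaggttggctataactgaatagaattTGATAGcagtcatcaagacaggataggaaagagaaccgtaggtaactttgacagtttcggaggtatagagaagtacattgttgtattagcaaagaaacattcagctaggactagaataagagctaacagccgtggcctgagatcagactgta
Nt5c2 region: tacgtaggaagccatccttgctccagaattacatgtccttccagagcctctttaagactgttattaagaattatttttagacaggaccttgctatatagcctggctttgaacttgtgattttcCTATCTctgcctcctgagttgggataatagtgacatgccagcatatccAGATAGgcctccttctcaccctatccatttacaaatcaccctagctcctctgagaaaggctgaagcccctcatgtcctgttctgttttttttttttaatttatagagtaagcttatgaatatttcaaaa
Shank3 region: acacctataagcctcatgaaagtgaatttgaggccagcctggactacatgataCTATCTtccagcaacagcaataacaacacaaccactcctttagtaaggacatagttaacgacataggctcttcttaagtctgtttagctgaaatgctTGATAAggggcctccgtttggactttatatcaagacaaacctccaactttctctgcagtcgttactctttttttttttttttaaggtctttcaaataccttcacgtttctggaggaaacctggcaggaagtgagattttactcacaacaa
Tlk1 region: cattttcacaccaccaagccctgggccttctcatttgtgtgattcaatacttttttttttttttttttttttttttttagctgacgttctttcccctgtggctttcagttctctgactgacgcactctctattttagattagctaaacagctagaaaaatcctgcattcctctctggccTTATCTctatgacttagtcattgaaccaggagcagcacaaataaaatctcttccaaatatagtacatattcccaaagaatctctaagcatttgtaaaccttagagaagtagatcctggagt
Hmgb2 region: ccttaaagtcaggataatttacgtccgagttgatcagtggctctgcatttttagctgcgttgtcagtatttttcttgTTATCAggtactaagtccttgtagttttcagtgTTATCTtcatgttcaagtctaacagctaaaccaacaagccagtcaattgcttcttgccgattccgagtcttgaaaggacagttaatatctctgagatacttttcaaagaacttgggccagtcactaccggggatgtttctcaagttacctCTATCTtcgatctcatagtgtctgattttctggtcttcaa
Btn1a1 region: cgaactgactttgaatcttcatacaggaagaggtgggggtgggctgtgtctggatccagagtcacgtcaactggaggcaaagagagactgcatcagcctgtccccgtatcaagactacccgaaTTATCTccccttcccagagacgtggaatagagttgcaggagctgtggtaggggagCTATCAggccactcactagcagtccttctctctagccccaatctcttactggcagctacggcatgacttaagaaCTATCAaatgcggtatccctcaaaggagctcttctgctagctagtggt
Kit region: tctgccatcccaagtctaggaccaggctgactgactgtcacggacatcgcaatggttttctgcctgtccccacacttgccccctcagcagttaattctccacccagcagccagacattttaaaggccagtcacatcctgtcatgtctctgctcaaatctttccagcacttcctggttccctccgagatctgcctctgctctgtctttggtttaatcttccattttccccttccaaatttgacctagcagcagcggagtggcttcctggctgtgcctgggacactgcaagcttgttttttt
The *Hmgb2* and *Btn1a1* windows held 3 matches each, and the *Kit* window 0. A match is a description of the letters, not of a bound site.

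The H3K4me3 that these regions carried at 0 h was short and weak. The median region was 903 bp long (quartiles 802 and 1133, range 363 to 3375), compared with 1674 bp in the distal regions marked at all times. Over the 574 peaks of both 0 h lists, the score ran from 50.1 through a median of 72.8 to 200. The mean percentile of the score within its 0 h list had a median of 8.06 (quartiles 5.41 and 11.3), whereas it was 12.9 where H3K4me3 was lost after 12 h and 31.1 where it was present in all 10 lists. The rule therefore took regions near the lower end of the peak lists. Just outside it stood 297 distal regions with both 0 h peaks and a peak in 1 of the 4 late lists, whose late peak had a median score of 63.6 (50 to 206), and 937 with a peak in 1 of the 0 h lists and no late list, whose peak had a median score of 62.7 (50 to 375). The number of regions leaned on each 0 h list, being 888 without the first and 632 without the second, and it was 21 when peaks below the median score were left out of all lists.

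**Figure D1:**
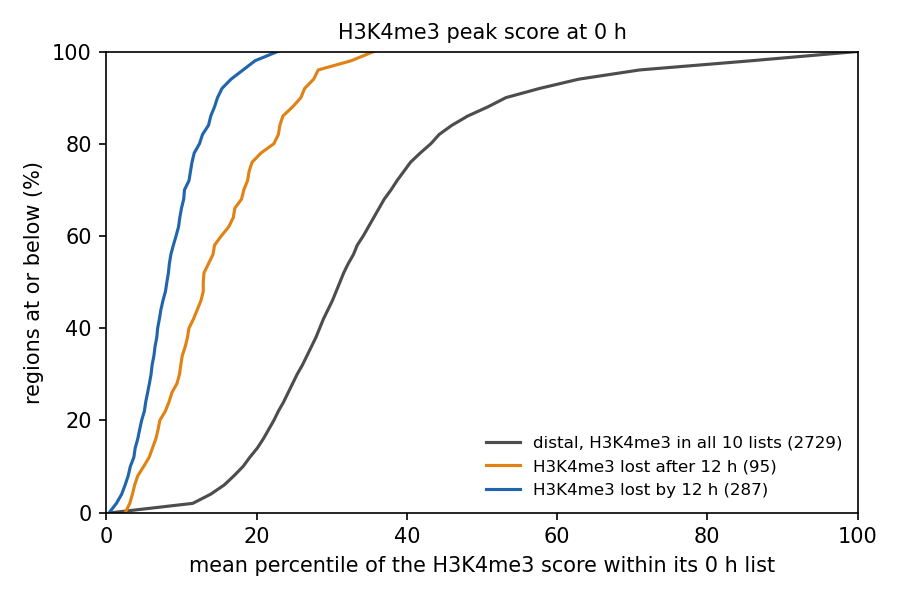
Cumulative share of regions (vertical axis, %) against the mean percentile of their H3K4me3 score within the 0 h lists (horizontal axis), for regions that lost H3K4me3 by 12 h, after 12 h, or not at all. The curve of the 287 regions rises first, with a median at percentile 8.06, and that of the 2729 regions marked in all lists last, with a median at 31.1.

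The 8 regions with the highest score percentile at 0 h lay at different distances from a coding TSS, the nearest at 5778 bp (*Vwce*). Near *Zfp629*, a zinc finger gene, the region chr7:127648530-127649789 lay 32733 bp upstream of the TSS and scored 176 and 161 in the first and second 0 h lists. The region nearest to *Parm1*, which encodes a mucin-like membrane protein, scored 160 and 159. That at chr1:14483683-14484878 scored 161 and 155 and lay 173448 bp upstream of *Eya1*, a transcriptional coactivator with phosphatase activity. Within introns stood the region of *Rad51b*, a recombination repair gene (scores 127 and 173), that of *Vwce* (154 and 126), and one in *Epha6*, an ephrin receptor, whose nearest coding TSS was that of *Arl6* (139 and 154). The remaining regions of the 8 highest lay 6994 bp downstream of *Frat1*, which encodes an inhibitor of GSK3 (131 and 169), and 60056 bp upstream of *Haao*, an enzyme of tryptophan breakdown (141 and 135). The longest stretch of H3K4me3 was at chr2:170152678-170156052, upstream of *Zfp217*, with 3225 and 3375 bp covered in the 0 h lists.

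At the times between, H3K4me3 was called in part of the regions. At 2 h it was listed in 153 (53.3%) and 97 (33.8%) of the 287, a mean of 43.6% ± 13.8 (SD, n = 2), and at 6 h in 80 (27.9%) and 71 (24.7%), a mean of 26.3% ± 2.22 (SD, n = 2). Each 2 h list held more of the regions than either 6 h list, and the 2 h lists differed from each other more than the 6 h lists did. The order turned when peaks below the pooled median score were left out, with 47.6% at 2 h and 64.3% at 6 h over the 21 regions left. That cutoff was 1 raw score for all lists, whose median scores were 867 and 852 at 2 h and 878 and 1060 at 6 h. The part of these score scales in the turn was not tested. Among all 4294 distal regions with both 0 h peaks, from which the 287 were drawn, the means were 88.5% at 2 h and 86.3% at 6 h. No test was run, because regions chosen for late absence were bound to be listed less often. The first 2 h list held 14090 peaks in all and the second 13196, and the part of that difference in the member counts was not tested. Without the first 0 h list, which enlarged the set, the mean at 2 h was 24.8% and at 6 h 15.1%. Without the second 0 h list, the mean at 2 h was 28.8%.

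Taken by region, 80 had no peak in any of the 4 lists at 2 and 6 h, 75 had 1, 81 had 2, 40 had 3 and 11 had 4. The earliest to go with a high score were the region 15511 bp upstream of *Ybx3*, a cold shock domain protein (1034 and 1022 bp covered at 0 h), the one in an intron of *B3gat2* nearest to *Smap1* (650 and 727 bp), and the one in an intron of *Angpt1*, the ligand of the TIE2 receptor (587 and 1016 bp). All 3 had no H3K4me3 base covered at 2 or 6 h. The regions of *Vwce*, *Cd55* and *Tiam1* went the other way and held H3K4me3 in all 4 of these lists. At the region 23810 bp upstream of *Cd55*, which encodes a complement decay factor, the covered length began at 840 and 896 bp, was 935 and 574 bp after 2 h and 912 and 855 bp after 6 h, and then 0 bp. At the intronic region of *Tiam1*, an activator of RAC1, it began at 851 and 1634 bp, reached 1778 and 942 bp after 2 h, and stood at 809 and 1461 bp after 6 h. The lengths at these 2 regions overlapped between 0, 2 and 6 h.

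H3K27ac stayed at most regions that had it. The 0 h lists held it for 189 and 198 of the 287 regions, the 2 h lists for 188 and 197, and the 6 h lists for 194 and 195. Those of 12 h held it for 192 and 197, and those of 24 h for 180 and 175. The mean share began at 67.4% ± 2.22, was 67.1% ± 2.22 after 2 h, 67.8% ± 0.246 after 6 h and 67.8% ± 1.23 after 12 h, and ended at 61.8% ± 1.23 after 24 h (SD, n = 2 each). The lists from 0 to 12 h overlapped, so H3K27ac presence did not separate the times over which H3K4me3 went. Both 24 h lists lay below both 0 h lists (62.7% and 61% against 65.9% and 69%). With 2 lists a side, the smallest two-sided p that an exact permutation test can give is 0.333, and the gap was not tested further.

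**Figure D2:**
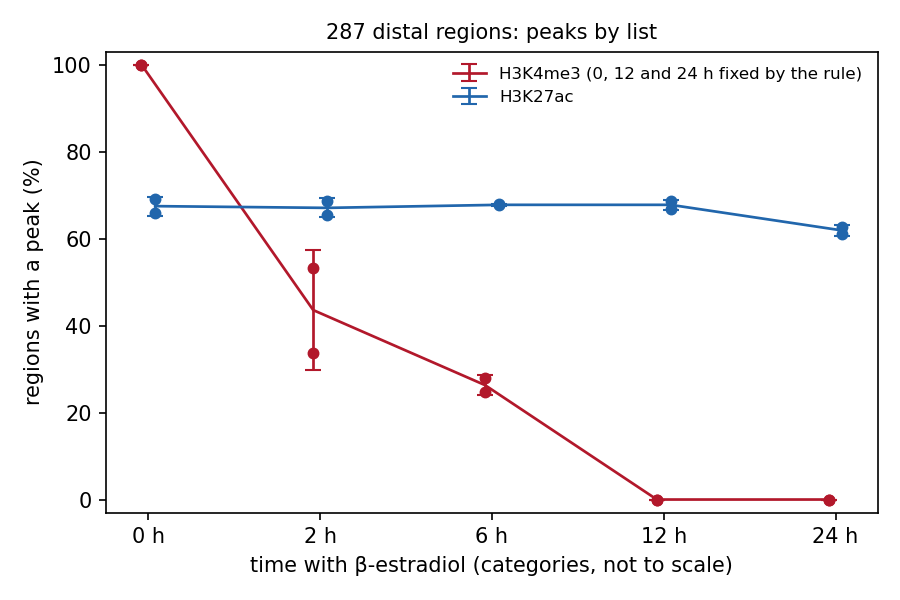
Share of the 287 regions with a peak (vertical axis, %) in each list by time with β-estradiol (horizontal axis, categories), with points for single lists and lines and bars for the mean ± SD of 2. H3K4me3 goes from 100% to 0%, which the rule fixed, with 43.6% at 2 h and 26.3% at 6 h, while H3K27ac stays between 61% and 69% in all 10 lists.

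Region by region, 178 of the 287 had H3K27ac in both 0 h lists. Of these, 167 (93.8%, interval 89.3 to 96.5) had it in both 12 h lists and 147 (82.6%, 76.3 to 87.5) in both 24 h lists, while 16 had it in 1 of the 24 h lists. In 15 regions it was in neither 24 h list, which is 5.23% of the 287, whereas 1.99% of all 16244 regions, promoters included, lost it in this way. Of the regions with H3K27ac in both 0 h lists, that was 8.43% among the 287. It was 6.9% where H3K4me3 was lost after 12 h, 5.12% over all distal regions and 3.66% over the 4294 distal regions with both 0 h peaks. It appeared in both 24 h lists but neither 0 h list in 3 regions, 1.05% of the 287, against 0.899% of all regions. H3K27ac was present in all 10 lists at 145 regions (50.5%), in none at 57 (19.9%) and in 1 to 9 lists at 85. Of all 4294 distal regions with both 0 h peaks, 59.1% had it in all 10 lists and 10.9% in none, so more of the 287 than of these were without H3K27ac. It was in none at 20% of the 95 regions that lost H3K4me3 after 12 h and at 22.2% of all 7020 distal regions. In all 10 lists it was present at 47.4% and 46.7% of these. Lack of H3K27ac was thus not particular to the 287.

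**Figure D3:**
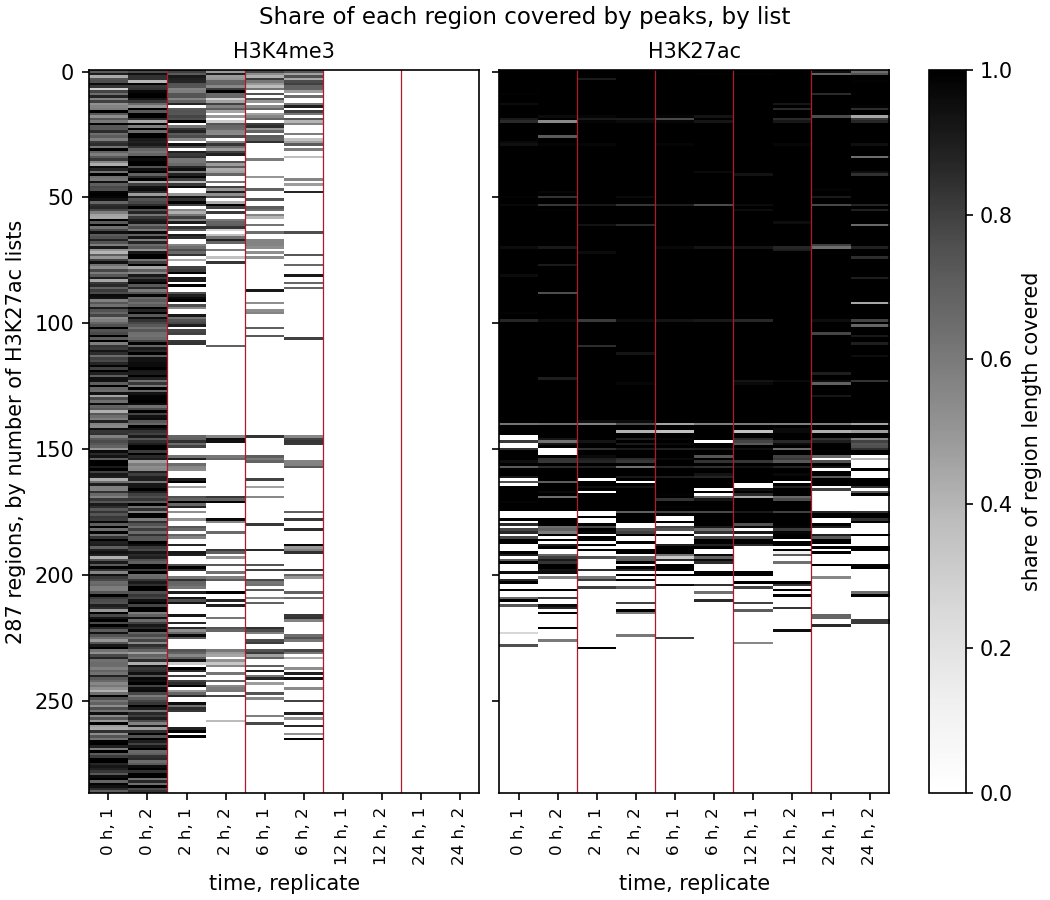
Share of each region's length covered by peaks (grey scale, 0 white to 1 black) for the 287 regions (rows, ordered by the number of H3K27ac lists) in the 10 H3K4me3 and the 10 H3K27ac lists (columns, by time and replicate). H3K4me3 thins out at 2 and 6 h and is absent at 12 and 24 h by the rule, while the H3K27ac block of the 145 regions at the top runs through all times and 57 rows at the bottom stay empty.

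The persistence of H3K27ac at 12 h was similar in the other distal classes, with 89.7% (79.2 to 95.2) kept where H3K4me3 was lost after 12 h and 94.5% (93.5 to 95.4) where H3K4me3 was present in all lists. At 24 h it was 81% (69.1 to 89.1) and 92.5% (91.3 to 93.5) in those classes, beside 82.6% in the regions that lost H3K4me3 by 12 h. The interval of the 287 regions overlapped that of the late losers and lay below that of the regions marked in all lists. These are counts of regions within the same lists, and the difference between the classes was not tested over samples. Shares of regions with an H3K27ac peak moved from 83.2% ± 0.803 at 0 h to 82% ± 0.544 at 24 h (SD, n = 2) in the regions marked in all lists, and from 66.8% ± 0.744 to 57.9% ± 0 in the late losers. Within the 287, the kept share at 24 h was 77.8%, 80%, 86.5%, 82.1% and 100% for regions with H3K4me3 in 0, 1, 2, 3 and 4 of the lists at 2 and 6 h, with intervals that all overlapped.

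**Figure D4:**
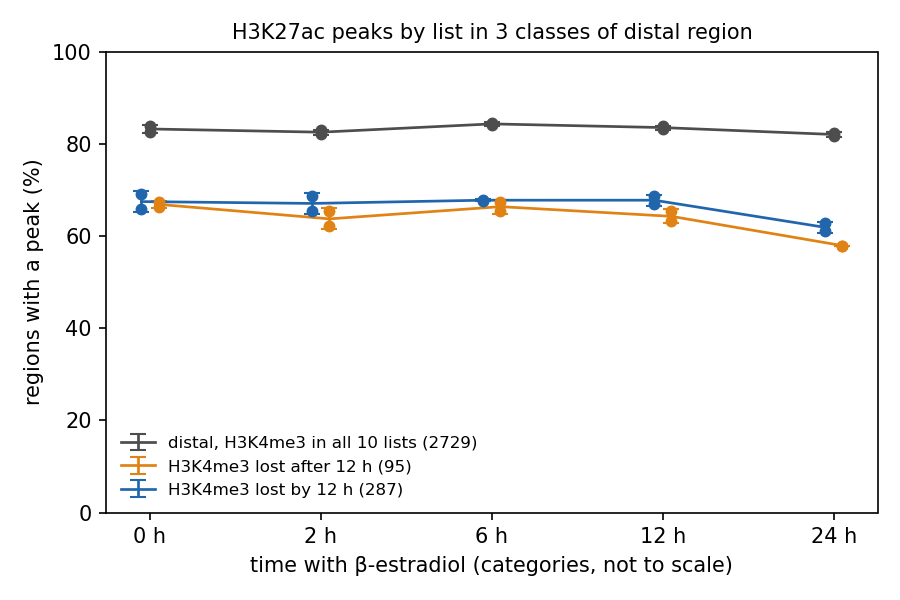
Share of distal regions with an H3K27ac peak (vertical axis, %) by time with β-estradiol (horizontal axis, categories), for regions that lost H3K4me3 by 12 h, after 12 h, or not at all, with points for single lists and lines and bars for the mean ± SD of 2. The regions marked in all lists lie at 82% to 84.3% on average, and both classes that lost H3K4me3 lie lower, reaching 61.8% and 57.9% at 24 h.

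The H3K27ac at these sites reached past the H3K4me3. Merging the 10 H3K27ac lists gave 229 H3K27ac regions that touched 230 of the 287, with a median length of 3036 bp (quartiles 1902 and 4587). At 204 of the regions the H3K27ac extended past the H3K4me3 on both sides, and 93 were covered from end to end in all 10 lists. Over regions with a peak, the median H3K27ac peak was 2568 and 2370 bp long in the 0 h lists and 2298 and 2203 bp in the 24 h lists, so that both 24 h medians lay below both 0 h medians. Its score stood at a median percentile of 41.8 and 40.9 within the 0 h lists, and at 41 and 37.7 within the 24 h lists. In the distal regions with H3K4me3 in all lists it was 49.5 and 48.3 within the 0 h lists.

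To test single regions, the length covered by H3K27ac peaks inside each H3K4me3 region was compared between times with limma on the scale log2(bp + 200), over the 13619 regions with H3K27ac in at least 2 lists, of which 216 were among the 287. At 24 h against 0 h, 9 of the 216 (4.17%) fell and 0 rose at a Benjamini-Hochberg adjusted p under 0.05, whereas 1.10% of all regions tested fell and 1.31% rose. At an unadjusted p under 0.05, 17 of the 216 were lower and 3 higher. At 12 h against 0 h, 2 (0.926%) fell and 0 rose, beside 0.536% and 0.962% of all regions. At an unadjusted p under 0.05, 3 of the 216 were lower and 3 higher at 12 h. The median difference over the 216 was 0.00 at both times, as it was over all regions tested. Since covered length cannot exceed the region, many regions had no spread between lists, which makes these p-values too small. The counts at 24 h also moved without single lists, to 16 without either 0 h list (8 higher and 8 lower without the first, 7 higher and 9 lower without the second), and to 30 and 20, all lower, without the first or second 24 h list. At 12 h the direction turned without a 0 h list, with 11 calls (9 higher, 2 lower) without the first and 7 (6 higher, 1 lower) without the second. There were 5 calls at 12 h (2 higher, 3 lower) without either 2 h list, 5 (1 higher, 4 lower) without the first 12 h list and 6 (1 higher, 5 lower) without the second.

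Measuring the H3K27ac regions themselves, a comparison added after seeing the data, removed that ceiling. Of 215 tested that touched one of the 287, 24 (11.2%) fell and 5 (2.33%) rose at 24 h by limma's adjusted p, beside 3.02% and 3.30% of all 21011 H3K27ac regions. The 21011 include promoters, and shares for distal regions or late losers alone were not computed. In the late losers, too, the share with an H3K27ac peak was lower at 24 h (57.9%) than at 0 h (66.8%). At 12 h, 2 fell, near *Rasal2* and *Vmn1r61*, and 1 rose, near *Hoxc4*, beside 0.990% and 1.76% of all. The median log2 difference of the 215 at 24 h was -0.17, and over all H3K27ac regions it was 0.01. Among these 215, lower calls thus outnumbered higher ones at 24 h, while in the whole list the numbers were close.

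Of the 9 regions that fell inside the H3K4me3 interval, 6 had H3K27ac in all 8 lists from 0 to 12 h and in neither list at 24 h. They lay near *Tlk1*, *Hmgb2*, *Gm10306*, *Gckr*, *Sh3rf1* and *Ext1*. In the 12 h lists their H3K27ac peaks scored between 53.4 (*Tlk1*) and 116 (*Hmgb2*). Those lists began at 50 and had median scores of 248 and 245, so these were weak peaks. Their absence at 24 h means not detected, which a small fall in signal could also give. The H3K27ac region 63124 bp upstream of *Tlk1*, a kinase of chromatin assembly, began at 2123 and 1877 bp, was 1716 and 1936 bp long after 2 h, 1851 and 1774 bp after 6 h and 1418 and 1951 bp after 12 h, and was listed at 0 after 24 h (adjusted p = 0.000276, limma). Near *Hmgb2*, which encodes a high mobility group protein that bends DNA, the lengths began at 1466 and 1302 bp and were 1406 and 1334 bp after 12 h, with 0 after 24 h (adjusted p = 0.000466, limma). In both, the H3K27ac lengths of 12 h overlapped those of 0 h, at a time when H3K4me3 was no longer called. The *Hmgb2* region also held the TSS of a noncoding gene, at 8140 bp from the coding one.

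In an intron of *Ext1*, which encodes an enzyme of heparan sulfate synthesis, the H3K27ac length was 1565 and 1441 bp to begin with and 1308 and 1246 bp after 12 h (adjusted p = 0.000552 for 24 h against 0 h, limma). In an intron of *Gckr*, the glucokinase regulator, it went from 1820 and 1247 bp to 912 and 1214 bp over the same time (adjusted p = 0.00159, limma). That of the predicted gene *Gm10306*, 117923 bp upstream, went from 1724 and 1600 bp to 1200 and 1308 bp (adjusted p = 0.00186, limma). For the intron of *Sh3rf1*, a ubiquitin ligase with SH3 domains, the lengths went from 1196 and 698 bp to 858 and 1327 bp (adjusted p = 0.00513, limma). All 4 were listed at 0 in both 24 h lists, and at *Ext1*, *Gckr* and *Gm10306* both 12 h lengths already lay below both 0 h lengths. Inside the H3K4me3 interval, the fall at *Sh3rf1* had an adjusted p of 0.0909 in limma fitted to the 4 lists at 0 and 24 h only.

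The *Rasal2* and *Vmn1r61* regions were the 2 that had also fallen by 12 h. Upstream of *Rasal2*, which encodes a GTPase activator for RAS, H3K27ac covered 644 and 788 bp at 0 h, and upstream of *Vmn1r61*, a vomeronasal receptor gene, 426 and 559 bp, with 0 bp in all 8 later lists (adjusted p = 0.00114 and 0.00625 at 24 h, limma). At *Rasal2* H3K4me3 was still called where H3K27ac was not, with 904 bp in the first 2 h list, 0 bp in the second, and 553 and 628 bp at 6 h. These H3K4me3 peaks scored 91.1, 61.4 and 56.5. The 0 h H3K27ac peaks scored 64.1 and 85.8 at *Rasal2*, and 55 and 102 at *Vmn1r61*. With scores that begin at 50, the order in which the marks went is uncertain. With the 4 lists at 0 and 24 h alone, the adjusted p at *Vmn1r61* was 0.0519 by limma. The last of the 9, in an intron of the scaffold gene *Shank3*, was shortened rather than lost. Its H3K27ac covered 2431 bp in both 0 h lists, 2411 and 2431 bp after 12 h, and 1666 and 1818 bp after 24 h, a log2 difference of -0.44 ± 0.03 (SE, adjusted p = 0.00259, limma). Its adjusted p was 0.0919 when the region was widened by 1 kb on each side and 0.122 with the 4 lists alone.

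Other regions narrowed without vanishing when the whole H3K27ac region was measured; those given here were picked after their values were seen. Nearest to *Lrp1b*, a lipoprotein receptor gene, the length went from 5565 and 5524 bp through 4871 and 4131 bp after 12 h to 1922 and 1815 bp after 24 h, a log2 difference of -1.47 ± 0.10 (SE, adjusted p = 0.000476, limma). In *Rad51b* it went from 6305 and 5316 bp to 4288 and 3594 bp at 24 h (-0.54 ± 0.11, adjusted p = 0.0356, limma), although the H3K4me3 interval inside it stayed covered from end to end in all lists. In the *Epha6* intron nearest to *Arl6* it went from 2653 and 2615 bp to 1300 and 756 bp (-1.24 ± 0.21, adjusted p = 0.0165, limma). The 0 h and 24 h lengths did not overlap at any of these.

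H3K27ac was gained at 3 regions while H3K4me3 went, and they too are named after their values were seen. At the region 51421 bp downstream of *Hoxc4*, a homeobox gene, the H3K27ac region was listed at 0 in both 0 h lists, was 3163 and 3098 bp long after 2 h, 1548 and 3500 bp after 6 h and 3113 and 3142 bp after 12 h, and reached 3805 and 3623 bp after 24 h (adjusted p = 0.000602, limma). It was the only one of the 3 with an adjusted p under 0.05 in that comparison. Upstream of *Ppm1d*, which encodes a phosphatase induced by p53, H3K27ac covered 0 bp in both 0 h lists and the first 2 h list, and all 791 bp of the region in the other 7. Upstream of *Med13*, a subunit of the Mediator kinase module, it was likewise absent from these 3 lists and covered 573 to 751 bp in the other 7. Inside the H3K4me3 intervals, the adjusted p at 24 h was 0.276 at *Hoxc4*, 0.276 at *Ppm1d* and 0.24 at *Med13* by limma. With the 4 lists at 0 and 24 h alone, all 3 were called, at 7.85e-05, 7.59e-05 and 0.0011, by limma. Over the alternatives run they were called in some only, among them leaving out either 6 h list for *Hoxc4* and either 2 h list for *Ppm1d* and *Med13*. The other 4 H3K27ac regions that rose at 24 h had H3K27ac in all lists and lengthened. That nearest to *Usp37*, which encodes a deubiquitinase, went from 1954 and 1768 bp to 3137 and 3097 bp, a log2 difference of 0.69 ± 0.12 (SE, adjusted p = 0.0228, limma). The differences were 0.53 ± 0.10 nearest to *Amn*, 0.53 ± 0.11 nearest to *Gpatch8* and 0.45 ± 0.09 nearest to *Arid2*.

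**Figure D5:**
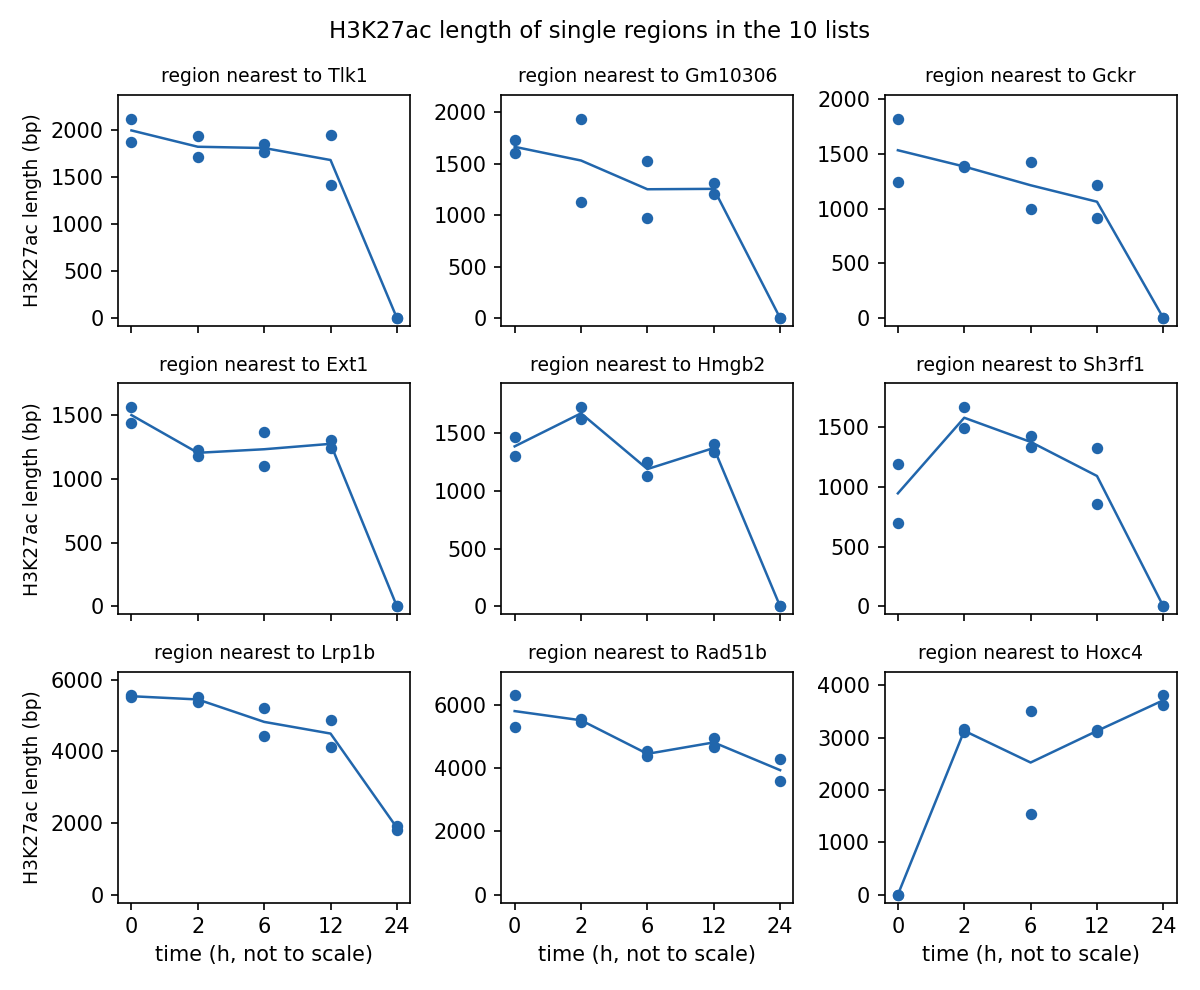
H3K27ac length (vertical axes, bp, each from 0) in the 10 lists by time with β-estradiol (horizontal axes, h, not to scale) for 9 H3K27ac regions that touch one of the 287, with points for single lists and lines through the mean of 2. The upper 6 are at 0 in both 24 h lists after holding H3K27ac in all 8 earlier lists, those nearest to Lrp1b and Rad51b shorten, and that nearest to Hoxc4 is at 0 only in the 0 h lists.

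Regions with H3K27ac in all lists included some of the longest. The *Nt5c2* region, in an intron of *Cnnm2*, lay inside an H3K27ac region of 7049 bp and was covered over its whole 2323 bp in every H3K27ac list, while its H3K4me3 went from 1558 and 2323 bp to 0 bp by 2 h. The *Parm1* region was covered over its 1812 bp in all 10 H3K27ac lists, and its H3K4me3 went from 1805 and 1599 bp through 1013 and 1100 bp after 2 h to 0 bp after 6 h. The *Tiam1* region, 1948 bp, was likewise covered throughout. At the X-linked region upstream of *4930524N10Rik*, H3K27ac covered 2028 and 2033 bp of 2033 in the 0 h lists, and 2033 and 1725 bp in those of 24 h. By contrast, the longest region, at *Zfp217*, had no H3K27ac peak in any list, and that at *Frat1* had one in the second 0 h list only.

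Regions by listed genes of the lineage were about as rare among the 287 as among other distal regions. A list of 25 stem and progenitor genes on the GATA2 side had 1 of the 287 within 50 kb or in a gene body, at *Kit*, and lists of 24 mast cell and myeloid genes, 12 megakaryocyte genes and 40 erythroid genes (39 found in the annotation) had 0. Over the 4294 distal regions with both 0 h peaks, the same lists held 17 (0.396%), 3 (0.0699%), 3 (0.0699%) and 9 (0.21%) regions, and 1 of 287 is 0.348%. A further list held 44 gene symbols (43 found), those of the promoters that the study targeted, with *Cldn13* and *Tmem184a* added. The study also describes the *Tmem184a* promoter as captured. Of the genes on this list, *Btn1a1* and *Kit* had a region, which is 0.697% of the 287 beside 0.442% of the 4294.

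The *Kit* region, chr5:75535554-75536591, lay 38325 bp upstream of the TSS of *Kit*, the receptor for the stem cell factor in the medium. Its H3K4me3 covered 839 and 619 bp in the 0 h lists, 533 and 1004 bp after 2 h, and 0 and 851 bp after 6 h. H3K27ac covered all 1038 bp in both lists at 0 and 12 h and in the second list at 2 and 6 h, 0 bp in the first list at 2, 6 and 24 h, and 874 bp in the second at 24 h. The replicates at 2, 6 and 24 h thus disagreed on whether H3K27ac was there, and no change was called (adjusted p = 0.763 at 24 h, limma). The *Btn1a1* region, chr13:23458792-23460334, lay in an intron 5541 bp from the TSS of this butyrophilin gene. Its H3K4me3 covered 1119 and 1414 bp in the 0 h lists, 0 bp in both 2 h lists, and 0 and 1416 bp after 6 h. H3K27ac was in all 10 lists there, over 1478 and 1543 bp to begin with and all 1543 bp at every later time.

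The 287 regions were spread over 20 chromosomes, with 8 to 22 on each, and had 277 different nearest genes. The median distance to a protein-coding TSS was 24545 bp (quartiles 11284 and 61194), close to 21914 bp in the regions marked in all lists, and 198 regions (69%) lay within 50 kb of one. Of the 287, 6 lay within 1 kb of a TSS, and 14 (4.88%) within 5 kb of an H3K4me3 region that held one. Introns held 126 regions (43.9%), and 150 (52.3%) lay outside genes, while in the regions marked in all lists these shares were 28.1% and 66.4%. These places are those of the middle of each region, which lay in an exon for the remaining regions. A noncoding TSS was inside 15 (5.23%) of the 287 and inside 22.9% of the regions marked in all lists, so fewer of the 287 held an annotated start of any kind. The median GC content was 44.7%, against 47.6%, and the ratio of observed to predicted CpG was 0.26, against 0.381.

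GATA motifs were frequent in the 300-base windows. A match was found in 159 of 287 (55.4%, interval 49.6 to 61), in 44.2% of windows where H3K4me3 was lost after 12 h, in 35.5% (33.8 to 37.4) where it was in all lists, and in 39.1% of all 4294 distal windows with both 0 h peaks. The same letters in reverse order, which are ATAG with A or G before them and with A or T after them and can overlap a GATA match, were found in 36.9%, 21.1%, 24.7% and 26.7% of these windows. GATA matches were thus more common in the 287 than in the regions marked in all lists, and so were the reversed letters, in windows of lower GC content whose part was not tested. Among the 287, GATA matches were in 60% (51.9 to 67.6) of the 145 with H3K27ac in all lists and in 52.6% (39.9 to 65) of the 57 with none, with overlapping intervals.

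Other motifs, searched on both strands, differed less. The RUNX motif TGTGGT was in 19.9% of the 287 windows and 16.7% of those marked in all lists, the ETS motif AGGAAGT in 12.5% and 10%, and the AP-1 motif, spelled TGACTCA in one form and with the letters TGAGTCA in the other, in 8.01% and 4.73%. The KLF motif CCNCNCCC, which needs C and G, was in 26.5% and 36.7%. Only for KLF and AP-1, of these 4, was the share in the regions marked in all lists outside the interval of the 287 (21.7 to 31.9 and 5.4 to 11.7).

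CTCF was called at a minority of the regions. A CTCF peak touched 44 of 287 (15.3%, interval 11.6 to 20) at 0 h and 50 (17.4%, 13.5 to 22.2) at 24 h, and 40 had it at both times. In the regions marked in all lists the shares were 31.5% at 0 h and 34.6% at 24 h, and in the late losers 25.3% (17.6 to 34.8) at both times. An overlap of 1 bp counted, and the classes differed in length. The median was 903 bp in the 287, 1207 bp in the late losers and 1674 bp in the regions marked in all lists. The part of length in the CTCF shares was not tested. There was 1 CTCF list a time, so the difference between the times has no replicate check, and the 24 h list was the longer. At 0 h CTCF was at 22 of the 145 regions with H3K27ac in all lists (15.2%, 10.2 to 21.9) and at 13 of the 57 with none (22.8%, 13.8 to 35.2). The highest CTCF scores at 0 h were 397 at the *Hmcn1* region, 383 at the *Foxc1* region and 304 at the *Aktip* region, and all 3 had a CTCF peak at 24 h too. The *Foxc1* and *Aktip* regions had no H3K27ac in any list, while that of *Hmcn1* had it in 9 lists.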

How the data were processed

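H3K4me3 and H3K27ac were measured by ChIP-seq at 5 times with 2 replicates each and CTCF at 2 times with 1 sample each. Per the submitters' processing notes, reads were aligned with Bowtie2 to mm10. The labels name a human build, but all deposited positions lie within the mouse GRCm38 (mm10) chromosomes (0 peaks beyond a chromosome end). The study's methods name MACS with the nomodel option for the histone marks. The version, control and threshold, and the caller for CTCF, are not given in the sources used here. The authors deposited 1 peak list per sample, with start and end positions and a peak score whose definition is not stated and whose lowest values are near 50 in every list.

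The members and gene lists were chosen with earlier results of these data known. Regions were merged where peaks touched, and an overlap of 1 bp counted as a peak. TSSs came from GENCODE M21 and the sequences from the GRCm38 assembly in RefSeq (1 window is not reported here). H3K27ac covered lengths, as log2(bp + 200), were fitted with limma 3.58.1 in R 4.3.3 over all 10 H3K27ac lists with a variance trend, after testing on simulated data. Benjamini-Hochberg adjustment ran over all regions tested. Regions were named by nearest coding TSS. Those named were the 8 with the highest 0 h H3K4me3 score percentile, the 6 longest, up to 6 with the largest called H3K27ac change in each direction, the 6 longest with H3K27ac in all lists, those by listed genes, the 3 with the highest CTCF score, and the 3 highest-scoring with H3K4me3 in all or none of the lists at 2 and 6 h. Other settings for the merging, TSS, score, overlap and fit were tried, and leaving out each list.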

Additional observations from a re-analysis of the deposited data

How the results depend on the processing

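With peaks below the pooled median score left out of all lists, 21 regions met the rule. They had H3K27ac at 78.6% (0 h), 85.7% (12 h) and 81% (24 h), a kept share of 100%, and H3K4me3 at 47.6% (2 h) and 64.3% (6 h). With equal numbers of top-scoring peaks, 80 regions met it, with H3K27ac at 80%, 76.9% and 70.6%. Without any TSS of any gene type, H3K27ac stood at 69.3% (12 h) and 63.6% (24 h). CTCF at 0 h was 9.76% when covering at least 50% of the region and 22% within 1 kb. The number of regions was 328 to 888 without 1 list at 0, 12 or 24 h and 287 or 288 without 1 at 2 or 6 h, and without 1 list the kept share 76% to 88.2%, the H3K27ac shares 57.4% to 69% (0 h), 55% to 68.6% (12 h) and 49.2% to 62.7% (24 h), and the H3K4me3 shares 24.8% to 52.8% (2 h) and 15.1% to 34.6% (6 h).

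For limma calls among the 287 at 24 h, fitting the 4 lists alone gave 15 (12 lower), widening by 1 kb 24 (21 lower), and the H3K27ac regions themselves, added after seeing the data, 29. At 12 h, requiring 5 lists gave 0 and the 4 lists alone 4. Among all regions, the 4 lists alone gave 567 at 24 h and 385 at 12 h, the H3K27ac regions themselves 1327 and 578, and requiring 5 lists 131 at 12 h. Without 1 list, calls ran from 11 to 30 (members, 24 h), 2 to 11 (members, 12 h), 377 to 596 (all, 24 h) and 218 to 423 (all, 12 h). A list left alone at its time is then assumed to vary like the others.

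Deviations of same-numbered lists in H3K27ac covered length correlated between -0.0351 and 0.054 in 10 comparisons. Many regions had no spread in this measure, so it cannot tell whether the replicate numbers pair the lists. With the number as a replicate block, 9 and 2 of the 287 were called at 24 and 12 h, as without it, and 275 and 162 of all regions. Depth is unknown, so that a peak missing from a list may lie just under the caller's threshold.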
